A study of Mus musculus with 4 samples.

Results

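The BCL2 family genes examined here were 10 of the 53379 genes in the table, taken by name. They were the survival genes *Bcl2*, *Bcl2l1* and *Mcl1*, the effector genes *Bax* and *Bak1*, and the BH3-only genes *Bcl2l11*, *Bad*, *Bid*, *Bbc3* and *Pmaip1*. Their mRNA was measured by RNA-seq in large intestinal (LI) Treg cells of C57BL/6 mice, with 2 control and 2 KO libraries, each from a pool of 2 to 3 mice aged 6 to 12 weeks. KO mice had the genotype Setd24flox/floxFoxp3-YFPcre in the labels and control mice Setd24flox/+Foxp3-YFPcre, so every library carried the Cre and at least 1 floxed copy of *Setd2*, the gene for an H3K36 methyltransferase. Cre was driven by *Foxp3* and so acts in cells that express that gene. The cells were sorted at steady state as CD3+CD4+YFP+, and the comparison asks how the loss of the second *Setd2* copy went with the mRNA of the cell death machinery in them.

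BCL2 family proteins decide at the outer mitochondrial membrane whether a cell enters intrinsic apoptosis. Survival proteins hold the effectors BAX and BAK in check, BH3-only proteins neutralise the survival proteins or activate the effectors, and the activated effectors open the membrane and release cytochrome c. In Treg cells, IL-2 signalling is known to sustain survival proteins, and the balance between MCL1 and BIM, the product of *Bcl2l11*, is known to set how long the cells live.

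Values are listed as FPKM, by definition fragments scaled to transcript length and library total. Scaling to length allows levels of genes of different length to be set side by side. The FPKM columns shared almost the same distribution, which that scaling alone does not give, and the step behind it is unknown. They keep no library depth, so the depth is unknown. The only error that can be given is that between the 2 pools of a group. In bulk samples such as these, fewer cells of a type and less RNA per cell cannot be told apart. The whole-gene *Setd2* FPKM was 38.19 and 27.36 in the control libraries and 26.33 and 36.30 in the KO libraries, and the groups overlapped. A whole-gene value does not show whether the floxed part was removed, so it does not check the genotype. *Foxp3* itself was low, at 2.62 and 5.61 FPKM in control and 4.66 and 3.05 in KO, while the other T and Treg cell markers were all high, from 84.12 FPKM for *Ikzf2* to 2310.35 for *Ctla4*. *Ctla4*, an inhibitory receptor of Treg cells, was 1593.26 and 1700.67 in control and 2159.97 and 2310.35 in KO, with a log2 fold change of 0.44 and a limma adjusted p of 0.132. *Ikzf2*, the gene for the factor Helios, was 120.75 and 115.57 in control and 84.12 and 98.36 in KO, with a log2 fold change of -0.37 and a limma adjusted p of 0.222. Neither passed the adjusted test, though the groups did not overlap for either, and their part in the members' values was not tested.

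Promoter sequences are shown for the 4 genes with an unadjusted p below 0.05 between the groups, so that the letters known to draw common regulators can be seen. Each window runs from 250 bases before to 50 bases after a RefSeq start site, 5′ to 3′ on the strand of the gene, in GRCm38.p6. Windows were found for 9 of the 10 genes, and *Pmaip1* had none. Capitals mark matches, on either strand, to GGGCGG (the GC box of SP factors), GTAAACA (the FOXO motif), TTCNNNGAA (the STAT motif) or CACGTG (the E-box of MYC). The *Bcl2* window is chr1:106714241-106714540 on the minus strand. For *Bcl2l11*, window 1 of 2 is chr2:128125788-128126087 on the plus strand, and it holds a FOXO match that window 2 lacks. *Bbc3* had 3 windows, and the one printed, chr7:16310011-16310310 on the plus strand, was picked because it holds a FOXO match. The *Bid* window is chr6:120916775-120917074 on the minus strand.
Bcl2: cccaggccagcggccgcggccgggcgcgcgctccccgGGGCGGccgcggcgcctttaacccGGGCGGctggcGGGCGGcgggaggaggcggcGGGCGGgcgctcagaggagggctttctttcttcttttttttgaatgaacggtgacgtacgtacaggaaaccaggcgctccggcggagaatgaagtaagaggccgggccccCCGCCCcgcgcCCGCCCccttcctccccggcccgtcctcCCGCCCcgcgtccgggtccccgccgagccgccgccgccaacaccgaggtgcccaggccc
Bcl2l11: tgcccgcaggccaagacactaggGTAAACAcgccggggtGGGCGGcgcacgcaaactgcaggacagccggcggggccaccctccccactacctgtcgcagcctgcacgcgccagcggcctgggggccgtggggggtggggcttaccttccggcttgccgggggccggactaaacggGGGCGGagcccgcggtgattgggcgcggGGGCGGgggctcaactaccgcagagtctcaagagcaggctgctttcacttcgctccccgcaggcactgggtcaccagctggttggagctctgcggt
Bbc3: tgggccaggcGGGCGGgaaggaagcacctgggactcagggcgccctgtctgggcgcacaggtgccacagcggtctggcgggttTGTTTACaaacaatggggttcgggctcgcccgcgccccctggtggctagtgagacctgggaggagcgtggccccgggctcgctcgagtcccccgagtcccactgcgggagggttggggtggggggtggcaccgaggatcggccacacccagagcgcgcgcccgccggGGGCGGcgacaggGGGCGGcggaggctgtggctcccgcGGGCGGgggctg
Bid: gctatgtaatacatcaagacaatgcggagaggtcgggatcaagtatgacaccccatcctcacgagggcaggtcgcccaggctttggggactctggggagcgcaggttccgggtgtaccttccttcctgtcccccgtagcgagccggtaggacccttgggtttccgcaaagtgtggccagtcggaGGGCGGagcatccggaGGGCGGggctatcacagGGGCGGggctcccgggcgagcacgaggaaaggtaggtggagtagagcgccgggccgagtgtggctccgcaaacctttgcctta

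All 4 windows were rich in CpG. The *Bcl2* window held 44 CpG at 76.0% G+C and the *Bcl2l11* window 27 CpG at 71.0%, while the *Bbc3* window held 30 CpG at 74.7% and the *Bid* window 22 CpG at 63.3%. The median over 32851 RefSeq promoters of the same length was 7 CpG and 52.7% G+C. GC box matches numbered 7 in the *Bcl2* window, 3 in the *Bcl2l11* window, 4 in the *Bbc3* window and 3 in the *Bid* window, and 35.7% of all promoters held at least 1. The FOXO letters occurred once in the *Bcl2l11* window printed and once in the *Bbc3* window printed, which was picked for it, and in none of the other 13 of the 15 windows of the 9 genes. The share of all promoters with these letters was 3.65%. *Bcl2l11* and *Bbc3* are known FOXO targets. The STAT letters occurred in no window of the 9 genes and in 8.30% of all promoters. The E-box occurred in none of the 4 windows printed and in 7.15% of all promoters, while the *Bax* window held it at 2 places and another *Bbc3* window at 1. These are matches of letters in a short window, not sites shown to be bound.

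No member passed the test between KO and control, but 3 lay lower and 1 higher in KO at an unadjusted p below 0.05. *Bcl2*, *Bcl2l11* and *Bbc3* were the lower ones, at 56.7%, 70.3% and 54.9% of their control means, and *Bid* was the higher one, at 174% of its control mean. The abundant members *Pmaip1*, *Bcl2l1*, *Bax* and *Mcl1* had KO means between 74.0% and 115% of control. The test was limma on log2(FPKM + 1), fitted on the 7639 protein-coding genes whose mean FPKM exceeded 5 in at least 1 group, with p-values adjusted over all of them. Of the 10 members, 9 passed that filter and *Bak1* did not. *Bid* passed it only through its KO mean and *Bbc3* only through its control mean, so their tests were open only because 1 group was high. Called at an adjusted p below 0.05 were 0 of the 9 members, where 0.589% of all genes tested were called. At an unadjusted p below 0.05 in limma there were 4 of 9, against 16.2% of all genes, with 3 lower against 7.57% and 1 higher against 8.61%. The libraries of the groups did not overlap for 5 of the 9, against 47.1% of all genes. Both counts include *Bid* and *Bbc3*. Of the members that passed the filter in both groups, only *Bcl2* and *Bcl2l11* had an unadjusted limma p below 0.05. The median log2 fold change was -0.06 over the 9 members and -0.0039 over all genes tested. For 1 gene on its own, an exact two-sided permutation test of 2 against 2 libraries cannot go below 0.333.

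**Figure D1:**
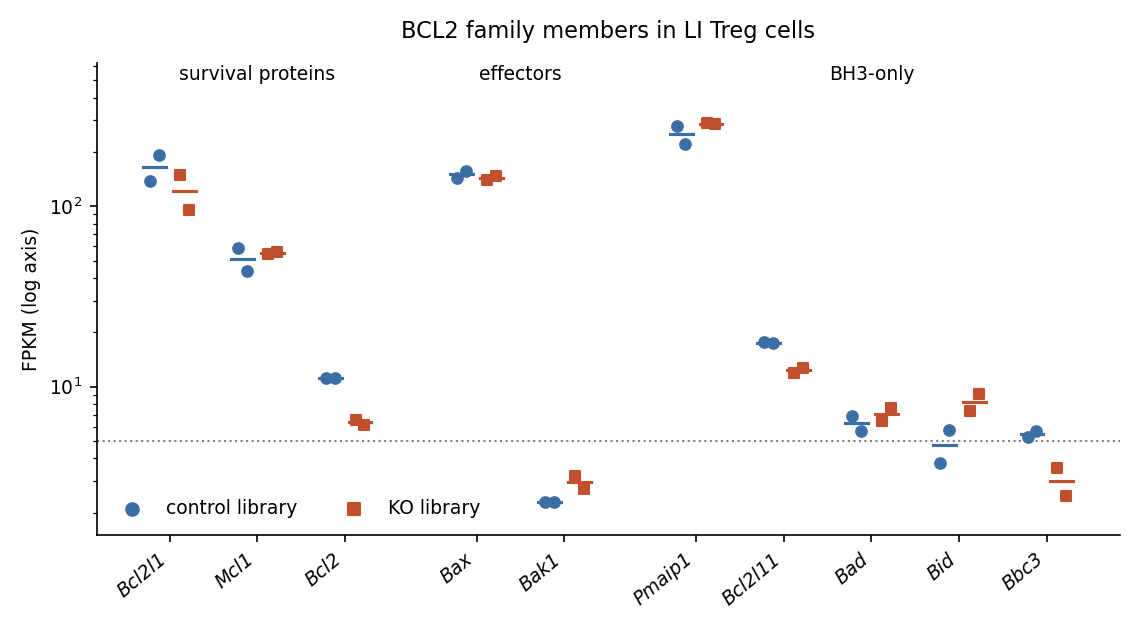
FPKM on a log axis of the 10 genes in each library, grouped by role, with circles for the 2 control libraries, squares for the 2 KO libraries, short bars for group means and a dotted line at 5 FPKM, the level a group mean had to exceed. *Pmaip1*, *Bcl2l1*, *Bax* and *Mcl1* sit above 40 FPKM, and *Bcl2*, *Bcl2l11* and *Bbc3* show KO squares below and *Bid* above the control circles.

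**Figure D2:**
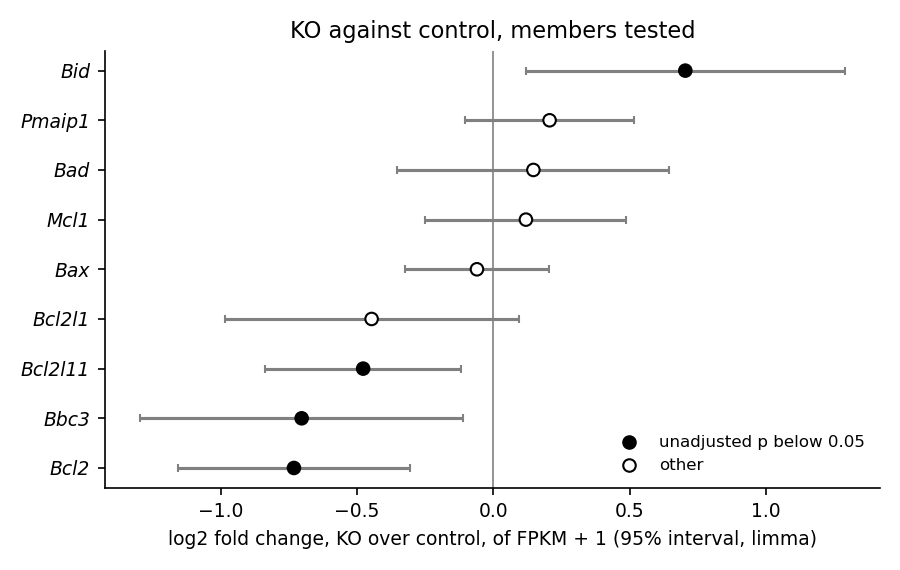
Log2 fold change of FPKM + 1, KO over control, for the 9 genes tested, with 95% intervals from limma and filled points where the unadjusted p was below 0.05. The intervals of *Bcl2*, *Bbc3*, *Bcl2l11* and *Bid* leave out 0 before adjustment for the 7639 genes tested, and the other 5 include it.

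Levels spanned a wide range among the members. In the control libraries the order of mean FPKM was *Pmaip1*, *Bcl2l1*, *Bax*, *Mcl1*, *Bcl2l11*, *Bcl2*, *Bad*, *Bbc3*, *Bid* and *Bak1*. The ranges of *Bcl2l1* and *Bax* overlapped there, as did those of *Bad* with *Bbc3* and of *Bbc3* with *Bid*, and the other neighbours were apart. In the KO libraries *Bax* stood above *Bcl2l1* with overlapping ranges, and *Bcl2* stood below *Bid* and *Bad*. The KO ranges of *Bid* and *Bad* overlapped, as did those of *Bad* and *Bcl2* and those of *Bbc3* and *Bak1*. *Bcl2* mRNA was thus a minor part of the survival genes in these cells, at 5.38% and 4.53% of their summed FPKM in control and 3.12% and 3.89% in KO.

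Among the survival genes, *Bcl2* (ENSMUSG00000057329, chromosome 1, 106538178 to 106714274, minus strand, GRCm38) encodes the founding survival protein, and its printed promoter lies at the upper end of that interval. Its FPKM was 11.17 and 11.19 in the control libraries and 6.54 and 6.14 in the KO libraries. Both KO libraries lay far below both control libraries, and the spread within each group was small beside the gap, with means of 11.2 ± 0.0141 and 6.34 ± 0.283 (SD, n = 2 each). The log2 fold change was -0.73 ± 0.18 (SE), with a 95% interval of -1.16 to -0.31, an unadjusted limma p of 0.0045 and an adjusted p of 0.126. Its mean level stood at the 19.8th percentile of the genes tested. Gm37053, a short unconfirmed gene model on the same strand within *Bcl2*, was listed at 1.33 and 1.35 FPKM in control and at 0.37 and 0.58 in KO. The antisense gene D630008O14Rik was at most 0.39 FPKM, and the sources used here do not say whether fragments were counted by strand.

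*Bcl2l1* (ENSMUSG00000007659, chromosome 2, 152780668 to 152831728, minus strand) encodes BCL-XL and was the most abundant of the 3 survival genes. Its FPKM was 138.07 and 191.77 in control and 148.40 and 95.66 in KO. KO 1 lay between the control libraries and only KO 2 was below them, so the groups overlapped. Means were 165 ± 38.0 and 122 ± 37.3 (SD, n = 2 each), and the log2 fold change was -0.45 with a limma adjusted p of 0.395. That value ran from -0.13 without KO 2 to -0.76 without KO 1, and was -0.21 without control 2 and -0.68 without control 1. Short and long splice forms of this gene are known to act in opposite directions, and a gene-level FPKM does not tell its 9 annotated transcripts apart.

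*Mcl1* (ENSMUSG00000038612, chromosome 3, 95658788 to 95663176, plus strand) encodes a short-lived survival protein on which Treg cells are known to depend. Its FPKM was 58.40 and 43.96 in control and 54.45 and 55.86 in KO. The KO values lay inside the control range, with means of 51.2 ± 10.2 and 55.2 ± 0.997 (SD, n = 2 each). The log2 fold change was 0.12, with a 95% interval of -0.25 to 0.49 and a limma adjusted p of 0.769, and its sign turned to -0.08 without control 2, while it was 0.32 without control 1.

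Of the effectors, *Bax* (ENSMUSG00000003873, chromosome 7, 45461697 to 45466898, minus strand) was abundant and *Bak1* (ENSMUSG00000057789, chromosome 17, 27019810 to 27029009, minus strand) was scarce. Both encode proteins that form the pore in the outer mitochondrial membrane. *Bax* FPKM was 142.71 and 157.58 in control and 140.12 and 147.63 in KO, and the groups overlapped. Its log2 fold change was -0.06, with a 95% interval of -0.32 to 0.20 and a limma adjusted p of 0.850. The value was 0.01 without control 2, -0.13 without control 1 and -0.02 without KO 1, all within that interval. The gene model Gm45808 overlaps *Bax* on the same strand and shares 15.3% of the 31-base sequences of its longest coding transcript, and it was listed at 0 in every library.

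*Bak1* FPKM was 2.30 and 2.28 in control and 3.21 and 2.70 in KO. The KO libraries stood above the control libraries, but the levels were under the filter and were not part of the main test. With the filter lowered to a mean FPKM of 1 in either group, its log2 fold change was 0.26 ± 0.23 (SE), with an unadjusted limma p of 0.295 and an adjusted p of 0.635.

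Among the BH3-only genes, *Bcl2l11* (ENSMUSG00000027381, chromosome 2, 128126038 to 128162547, plus strand) encodes BIM, which can bind all survival proteins. Its printed window ends within the first 50 bases of the annotated gene. The FPKM was 17.72 and 17.34 in control and 11.93 and 12.70 in KO. The groups were well apart, with means of 17.5 ± 0.269 and 12.3 ± 0.544 (SD, n = 2 each). The log2 fold change was -0.48 ± 0.15 (SE), with a 95% interval of -0.84 to -0.12, an unadjusted limma p of 0.0163 and an adjusted p of 0.215. When 1 library was left out, the log2 fold change ran from -0.52 without KO 2 to -0.44 without KO 1. The unadjusted limma p did not stay below 0.05 in all of those fits.

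*Bbc3* (ENSMUSG00000002083, chromosome 7, 16308393 to 16318205, plus strand) encodes PUMA, which like BIM can bind all survival proteins. Its FPKM was 5.23 and 5.69 in control and 3.52 and 2.48 in KO. Both KO libraries were lower, with means of 5.46 ± 0.325 and 3.00 ± 0.735 (SD, n = 2 each), and the level was among the lowest measured here. The log2 fold change was -0.70 ± 0.25 (SE), with a 95% interval of -1.30 to -0.11, an unadjusted limma p of 0.0262 and an adjusted p of 0.242. That test was open only because the control mean passed the filter, and with no filter the unadjusted limma p was 0.0463. The unadjusted limma p was 0.0202 without KO 1, 0.0682 without control 1 and 0.117 without control 2 or KO 2.

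*Bid* (ENSMUSG00000004446, chromosome 6, 120891930 to 120916853, minus strand) encodes the BH3-only protein that caspase-8 cleaves, and so links death receptors to the mitochondria. Its FPKM was 3.76 and 5.72 in control and 7.36 and 9.16 in KO. It was the only BH3-only gene with an unadjusted p below 0.05 that stood higher in KO, with means of 4.74 ± 1.39 and 8.26 ± 1.27 (SD, n = 2 each). The log2 fold change was 0.70 ± 0.25 (SE), with a 95% interval of 0.12 to 1.29, an unadjusted limma p of 0.0243 and an adjusted p of 0.237. That test was open only because the KO mean passed the filter, and with no filter the unadjusted limma p was 0.0551. Without control 1 the log2 fold change was 0.46 with an unadjusted limma p of 0.131, and without KO 2 it was 0.56 with a p of 0.125. *Bcl2l13* overlaps the end of *Bid* on the other strand and was listed at 4.18 to 6.02 FPKM, so reads from that stretch could be shared.

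**Figure D3:**
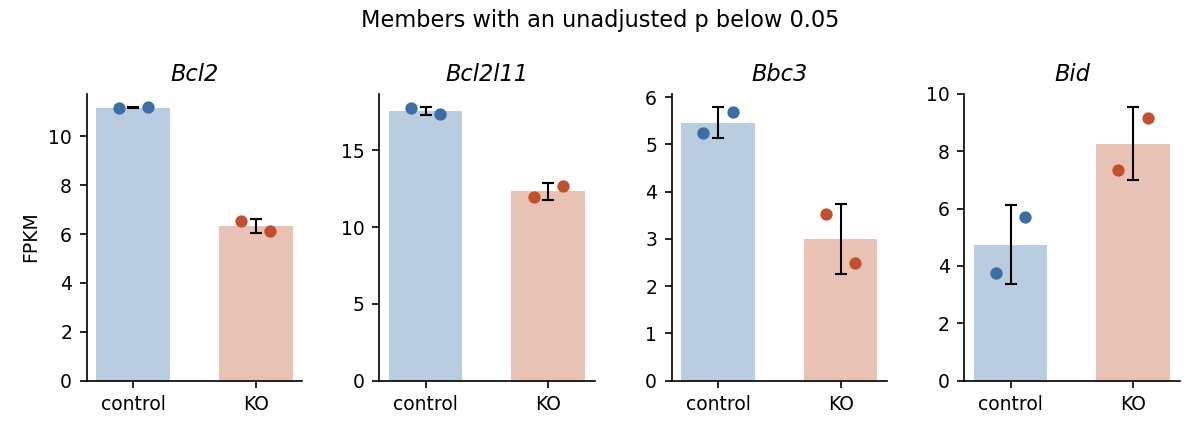
FPKM of *Bcl2*, *Bcl2l11*, *Bbc3* and *Bid*, with bars for group means, error bars for the SD of 2 libraries and points for single libraries, each panel on its own axis from 0. The KO points of the first 3 genes lie under the control points, and those of *Bid*, at 7.36 and 9.16, lie over them.

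*Pmaip1* (ENSMUSG00000024521, chromosome 18, 66458533 to 66465565, plus strand) encodes NOXA, an antagonist of MCL1, and was the most abundant member. Its FPKM was 278.56 and 222.01 in control and 289.10 and 285.18 in KO. The KO values exceeded the control values, but control 1 came close to them, with means of 250 ± 39.99 and 287 ± 2.77 (SD, n = 2 each). The log2 fold change was 0.21, with a 95% interval of -0.10 to 0.52 and a limma adjusted p of 0.486. It was 0.04 without control 2 and 0.37 without control 1.

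*Bad* (ENSMUSG00000024959, chromosome 19, 6941861 to 6951899, plus strand) encodes a BH3-only protein that growth factor signals switch off by phosphorylation. Its FPKM was 6.84 and 5.66 in control and 6.42 and 7.63 in KO. The groups overlapped, with a log2 fold change of 0.15, a 95% interval of -0.35 to 0.65 and a limma adjusted p of 0.792. It was 0.03 without control 2 and 0.04 without KO 2, and 0.26 without either of the other 2 libraries.

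Summed by role, the survival and the effector genes overlapped between the groups and the BH3-only genes did not. These sums describe mRNA in each library and carry no test. The survival genes summed to 207.64 and 246.92 FPKM in control and 209.39 and 157.66 in KO. The effectors summed to 145.01 and 159.86 in control and 143.33 and 150.33 in KO. The BH3-only genes summed to 312.11 and 256.42 in control and 318.33 and 317.15 in KO. Most of that was *Pmaip1*, which alone made up 86.6% to 90.8% of the BH3-only sum in each library. Without it the sum was 33.55 and 34.41 in control and 29.23 and 31.97 in KO, so the direction turned when that gene was left out. All 10 genes together came to 664.76 and 663.20 FPKM in control and 671.05 and 625.14 in KO.

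Ratios within a library set the opposing genes against each other. *Bcl2* over *Bcl2l11* was 0.630 and 0.645 in control and 0.548 and 0.483 in KO, since *Bcl2* lay further below control than *Bcl2l11* did. *Bid* over *Bcl2l11* was 0.212 and 0.330 in control and 0.617 and 0.721 in KO. The higher *Bid* per *Bcl2l11* in both KO libraries restates the values of these genes given above. They were named for an unadjusted p below 0.05 in opposite directions, so their ratio adds no further result. *Mcl1* over *Pmaip1*, the pair of MCL1 and an antagonist of it, was 0.210 and 0.198 in control and 0.188 and 0.196 in KO, lower in both KO libraries though KO 2 came close to control 2. *Bcl2l1* over *Bax* was 0.967 and 1.22 in control and 1.06 and 0.648 in KO, and overlapped.

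**Figure D4:**
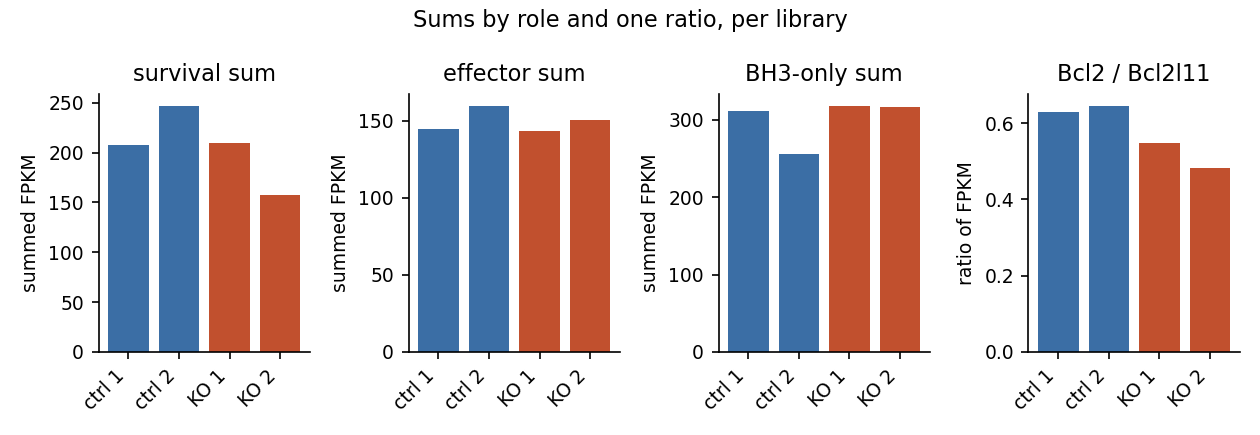
Summed FPKM of the survival, effector and BH3-only genes and the ratio of *Bcl2* to *Bcl2l11* in each library, with bars from 0 for control 1, control 2, KO 1 and KO 2 in that order. The survival and effector sums overlap between the groups, and the ratio is 0.630 and 0.645 in control and 0.548 and 0.483 in KO.

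The 5 tested genes whose pattern over the 4 libraries was most like that of *Bcl2*, by Euclidean distance of centred log2(FPKM + 1), were *Gpat4*, *Jarid2*, *Atp1b1*, *Dusp14* and *Zfp954*, at distances of 0.0486 to 0.0955. *Gpat4*, an enzyme of glycerolipid synthesis, was listed at 37.85 and 38.15 FPKM in control and at 23.60 and 21.23 in KO. *Jarid2*, a partner of Polycomb repressive complex 2, was listed at 74.52 and 73.03 in control and at 42.79 and 42.43 in KO. With only 4 libraries, such nearness restates a step between the groups.

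The wider cell death machinery around the members was counted in 5 lists of 77 genes, of which 57 passed the filter. One of the 57 passed the test at an adjusted p below 0.05, and 10 had an unadjusted p below 0.05 in limma, 8 lower and 2 higher in KO. That is 17.5% of those tested, close to the 16.2% of all genes tested. Over all genes tested, 578 were lower and 658 higher in KO at that threshold. The median log2 fold change of the 57 was -0.04.

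Among the other BCL2 family genes, 6 of 15 were tested and none passed the adjusted test. Of the 6, 3 had an unadjusted limma p below 0.05, where 16.2% of all genes tested did. *Bcl2a1d* and *Bcl2a1b* encode A1, a survival protein induced by NF-κB, and were the lower ones. *Bcl2a1d* was 145.14 and 157.82 FPKM in control and 118.26 and 117.37 in KO, with a log2 fold change of -0.36 and a limma adjusted p of 0.197. *Bcl2a1b* was 238.39 and 252.98 in control and 187.18 and 209.95 in KO, with a log2 fold change of -0.31 and a limma adjusted p of 0.251. The 3 copies *Bcl2a1a*, *Bcl2a1b* and *Bcl2a1d* share 79.6% to 89.1% of their 31-base sequences with other genes, so the split between them is uncertain. *Bcl2a1a* was low and went the other way, at 4.52 and 3.16 in control and 4.73 and 7.02 in KO. Its log2 fold change was 0.50, with a limma adjusted p of 0.420. The 3 copies summed to 388.05 and 413.96 in control and 310.17 and 334.34 in KO, and did not overlap. Most of that sum was *Bcl2a1b* and *Bcl2a1d*, so it restates their values. A1 mRNA thus exceeded that of *Bcl2l1* in every library. *Bnip3*, a mitochondrial protein induced by hypoxia that also serves mitophagy, was 64.17 and 62.51 in control and 92.09 and 95.39 in KO, with a log2 fold change of 0.56 and a limma adjusted p of 0.0821. It shares 26.6% of its 31-base sequences with other genes. Its relative *Bnip3l*, the most abundant of this list, was 284.48 and 275.52 in control and 304.10 and 289.10 in KO, with a log2 fold change of 0.08.

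Among caspases, apoptosome and IAP genes, 15 of 19 were tested, 1 passed the test and the median log2 fold change was 0.09. *Dffb*, the caspase-activated DNase that cuts chromatin late in apoptosis, fell from 22.56 and 18.20 FPKM in control to 6.73 and 8.16 in KO. Its log2 fold change was -1.34 ± 0.19 (SE), with a limma adjusted p of 0.0402. That call did not hold without control 1 (limma adjusted p of 0.0839), KO 1 (0.229) or KO 2 (0.207), though its unadjusted p was at most 0.0017 in all 16 alternatives. *Birc5*, the IAP survivin, which is also a mitotic gene, was 21.12 and 19.09 in control and 26.79 and 33.56 in KO, with a log2 fold change of 0.56 and a limma adjusted p of 0.177. *Birc3*, an IAP of the TNF receptor complex and the most abundant of this list, was 282.41 and 310.45 in control and 351.06 and 320.21 in KO, with a log2 fold change of 0.18 and a limma adjusted p of 0.478.

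Among death receptor and necroptosis genes, 9 of 11 were tested and none had an unadjusted limma p below 0.05, with a median log2 fold change of 0.01. *Ripk3*, the kinase of necroptosis and the most abundant of them, was 146.09 and 142.20 FPKM in control and 159.14 and 133.00 in KO. Among the genes for turnover and mitochondrial partners of the family, 14 of 16 were tested, none passed the adjusted test and 1 had an unadjusted limma p below 0.05. That one was *March5*, a ubiquitin ligase of the outer mitochondrial membrane, at 16.76 and 14.98 in control and 11.78 and 11.28 in KO, with a log2 fold change of -0.43 and a limma adjusted p of 0.262. *Tmbim6*, an endoplasmic reticulum inhibitor of BAX-driven death, was the most abundant, at 1229.66 and 1100.55 in control and 1229.66 and 1052.71 in KO.

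Among upstream regulators, 13 of 16 were tested, none passed the adjusted test, and 4 had an unadjusted limma p below 0.05, all lower in KO, where 7.57% of all genes tested were. Of the 13, 12 had a log2 fold change below 0, with a median of -0.26, and over all genes 3867 of 7639 were below 0, with a median of -0.0039. *Stat5a*, which carries the IL-2 signal to survival genes, was 114.47 and 144.20 FPKM in control and 97.55 and 89.56 in KO, with a log2 fold change of -0.45 and a limma adjusted p of 0.203. It overlaps the abundant *Stat3* on the other strand and shares 21.7% of its 31-base sequences with *Stat5b*. *Rel*, the NF-κB subunit c-Rel that drives A1 and BCL-XL genes, was 99.67 and 99.74 in control and 79.41 and 70.69 in KO, with a log2 fold change of -0.41 and a limma adjusted p of 0.176. *Myc*, which can sensitise cells to death, was 63.35 and 76.96 in control and 39.87 and 37.80 in KO, with a log2 fold change of -0.83 and a limma adjusted p of 0.0612. *Atf4*, the factor of the integrated stress response, was 170.53 and 183.29 in control and 146.18 and 121.40 in KO, with a log2 fold change of -0.41 and a limma adjusted p of 0.211. *Nfkb1*, the most abundant of them, was 311.76 and 274.48 in control and 265.89 and 301.68 in KO.

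**Figure D5:**
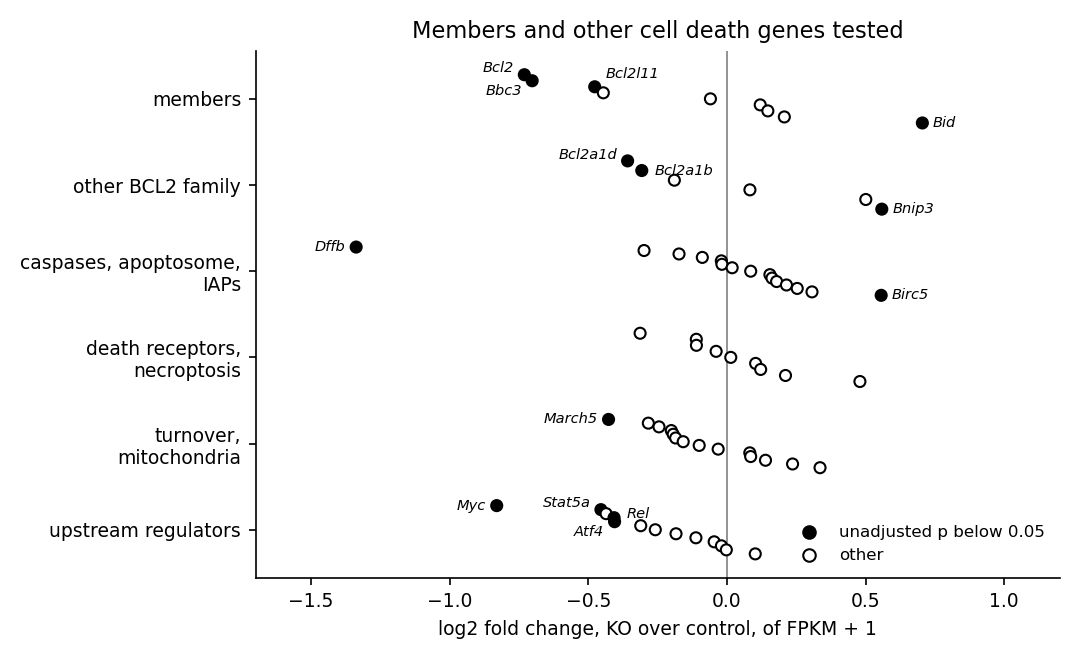
Log2 fold change of FPKM + 1, KO over control, for the 9 members tested and the 57 tested genes of the 5 lists around them, 1 row per list, with filled and named points where the unadjusted limma p was below 0.05. *Dffb*, at -1.34, lies furthest left, and 8 of the 10 filled points of the 5 lists lie left of 0. Over all 7639 genes tested, 578 with such a p were lower and 658 higher in KO.

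Marker genes of other cells and of resting Treg cells were measured beside the members. Of 8 resting Treg markers, all tested, 7 had a log2 fold change below 0, where 3867 of all 7639 genes tested did. *Ccr7*, a homing receptor for lymphoid tissue, fell from 541.77 and 586.55 FPKM to 318.76 and 235.84, with a limma adjusted p of 0.0475. That call did not hold without KO 1 (limma adjusted p of 0.0684) or KO 2 (0.240), nor under 5 of the other alternatives, where the limma adjusted p was 0.0521 to 0.319. The 8 markers summed to 798 and 855 FPKM in control and 549 and 449 in KO, so their sum was lower in both KO libraries, as *Bcl2* was. Most of it was *Ccr7*, and the other 7 summed to 256 and 269 in control and 230 and 214 in KO. The part of these markers in the *Bcl2* values was not tested. CD8, NK and γδ T cell markers summed to at most 4.71 FPKM, and none of the 6 passed the filter. B and plasma cell markers summed to 132 and 174 in control and 124 and 185 in KO, most of it *Jchain*. *Cd79b* was at 9.18 to 12.54 FPKM and passed the filter, while *Pax5* was at most 0.04. Myeloid and mast cell markers summed to 220 and 203 in control and 202 and 254 in KO, with *Lyz2* the largest part. *Cd14* was at 32.40 to 41.96 FPKM, *Cd68* at 21.36 to 31.01 and *S100a9* at 0 in every library. The 5 tested genes of that list all had a log2 fold change above 0, with a median of 0.12, where 3772 of all 7639 genes tested were above 0. None had an unadjusted limma p below 0.05. Epithelial and stromal markers summed to 68.1 and 72.1 in control and 77.0 and 71.4 in KO, with *Krt8*, *Krt20*, *Vil1* and *Muc2* at most 0.19. All 3 of that list that were tested had an unadjusted limma p below 0.05, where 16.2% of all genes tested did. *Epcam* was lower and *Krt18* and *Pecam1* were higher in KO, and none passed the adjusted test. The part of these lists in the members' values was not tested.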

How the data were processed

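The authors mapped 150 bp paired reads to GRCm38 with STAR 2.5 and quantified genes with RSEM 1.2, per the labels and the methods. The deposited table gives FPKM of 53379 genes, 1 column per library, rounded to 2 decimals. Among the top 5000 ranks, 2172 were equal across the 4 columns, and the step behind this is not given in the sources used here. Depth could not be recovered, so no count test was run. Symbols that a spreadsheet had turned into dates, 26 in all, were restored by gene ID. Gene types and positions came from GENCODE vM21, and promoters from RefSeq.

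limma 3.58.1 (R 4.3.3) was fitted to log2(FPKM + 1), KO against control, with no covariate and an empirical Bayes trend, over protein-coding genes whose mean FPKM exceeded 5 in at least 1 group. Benjamini-Hochberg adjustment covered all 7639. The study's own test on counts could not be used on FPKM. The fit was tested on simulated data with 200 of 7639 genes changed by a log2 fold change of 1, where it called 211 genes and recovered 97.5% of those changed. The noise there was set by hand, without a trend with level or an effect shared by the genes of a library. It was not taken from these libraries, so that share is not the power of this design. Tables were handled in Python 3.11.15 with pandas 2.3.3 and figures drawn with matplotlib 3.10.9.

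The members and the gene lists were chosen with earlier results of these data known. The text names all 10 members, the genes of each list with an unadjusted p below 0.05 and its most abundant gene, the 5 genes with the pattern nearest to *Bcl2*, *Setd2*, and markers, of which 1 is not reported here. The libraries were separate pools of mice, but no source says that equal numbers share a litter or day. Libraries with the same number, taken as deviations from the group mean, correlated at r = -0.305 over 7639 genes. With 2 libraries per group, libraries with different numbers then correlate at r = 0.305 by construction. The number was not used as a block in the main fit. Alternatives were the pseudocount, the filter, gene types, scaling, the trend, a replicate block and leaving out each library. A crossed pairing was added after seeing the data.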

Additional observations from a re-analysis of the deposited data

How the results depend on the processing

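No member passed an adjusted p of 0.05 in limma under 15 of the 16 alternatives, while a crossed pairing as a block, chosen after seeing the data, called 2, *Bcl2* (0.0436) and *Bcl2l1* (0.0342). The numbering gives no ground for that pairing. At an unadjusted limma p below 0.05 there were 1 to 4 members when 1 library was left out, with 1 (*Bcl2*) without KO 2, and 3 to 5 under the other alternatives. *Bcl2* kept its direction and an unadjusted p below 0.05 in all 16 alternatives, at log2 fold changes of -0.81 to -0.51 and adjusted limma p of 0.123 to 0.564 without the crossed pairing. *Mcl1* ran from -0.081 to 0.32 and *Bax* from -0.13 to 0.011 when 1 library was left out, and both changed sign without control 2. Of the other cell death genes, the 1 called at first went to 0 with a mean FPKM of at least 1, with no filter, with all gene types, without the trend and with the replicate block, and to 8 with the crossed pairing. It was 0 to 1 when 1 library was left out, and the 1 without control 1 was *Myc*, not *Dffb*. Their unadjusted limma count of 10 became 17 with the crossed pairing and ran from 4 to 13 when 1 library was left out. Over all 7639 genes tested, the count at an unadjusted limma p below 0.05 moved too. It went from 1236 to 1991 with the crossed pairing and to 796 with the replicate block. The share over all genes thus differed between alternatives, and the cause of these shifts was not tested.

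With the replicate block, 0 members passed the adjusted limma test and 3 the unadjusted one (*Bcl2*, *Bcl2l11* and *Bid*), and adjusted p was 0.325 for *Bcl2*, 0.470 for *Bcl2l11*, 0.404 for *Bid* and 0.487 for *Bbc3*. Over all genes the main count of 45 calls became 27 with the block, 465 with the crossed pairing, 27 with a mean FPKM of at least 1, 0 with no filter (1946 at an unadjusted p below 0.05), 13 with all gene types and 3 without the trend. It was 2 without KO 1, 3 without KO 2 and 66 without control 2. With 1 library left out, the lone library of its group was assumed to vary like the other group. Depth is unknown, so counting error in low genes such as *Bak1*, *Bbc3* and *Bid* could not be given.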
